A study of Mus musculus with 85 samples.

Results

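Dnase1l3 is the single gene described here, 1 of 23608 genes in the tables. It was chosen on its levels in the libraries of the inbred strains, so its differences between those groups are given as descriptions, as fitted log2 differences with a standard error (SE) and without a p-value. The values left for a test were those of the hybrid CB6F1/J mice and of other genes. RNA-seq was done on 69 libraries from inbred mice of 3 strains, which were A/J, BALB/cJ and C57BL/6J, and on 16 libraries of CB6F1/J mice, whose parents are a BALB/cJ and a C57BL/6J mouse.

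Kupffer cells are the resident macrophages of the liver and lie inside its sinusoids, against the liver sinusoidal endothelial cells (LSECs). The groups of Kupffer cells were these. The AMLN diet supplies much fat, fructose and cholesterol and is used to induce steatohepatitis, to which the study calls BALB/cJ resistant and C57BL/6J sensitive. Kupffer cells were taken after 30 weeks of the diet for 4 libraries of A/J, 3 of BALB/cJ and 4 of C57BL/6J. NSG mice, an immunodeficient strain, had been conditioned with busulfan and given hematopoietic cells of BALB/cJ or C57BL/6J donors, and 3 libraries of each donor strain were made from the Kupffer cells that grew from the graft. Lipopolysaccharide (LPS) was injected at 0.1 mg per kg 2 h before 2 BALB/cJ and 2 C57BL/6J libraries were made. Untreated Kupffer cells had 2 libraries in each strain. By the methods, mice of the LPS experiment were fasted overnight, injected or not. The labels do not say which untreated libraries came from fasted mice. CB6F1/J Kupffer cells had 5 LPS libraries, 3 libraries of hybrid cells in NSG mice and 4 untreated libraries. LSECs had 4 libraries per strain, stellate cells had 4 of A/J, 4 of BALB/cJ and 3 of C57BL/6J mice, and hepatocytes had 2, 2 and 3 in that order of strains. Bone-marrow-derived macrophages (BMDMs), which are grown in culture, had 2 libraries per strain, the hybrid included, with KLA, a purified lipid that activates TLR4, at 100 ng per ml for 2 h and 2 with PBS.

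Several features limit these groups. The AMLN mice had been on the diet for weeks that the untreated mice had not, so diet, age and day of collection cannot be told apart. By the methods, mice without another diet had ordinary laboratory chow, and no group here is labelled as fed the control diet of the AMLN experiment. All mice were male. The C57BL/6J label of the diet experiment stands for a colony kept in the laboratory, according to the methods, under the name C57BL/6. In NSG recipients, the host, the conditioning and the origin of the cells from a graft all differ from those of an untreated mouse. Kupffer cells were sorted as F4/80-high, CD45+ and CD146- cells and LSECs as CD146+ and CD45- cells, so the gate was set to keep LSECs out of the Kupffer sort. In NSG mice, cells from BALB/cJ and C57BL/6J grafts were also told from those of the host by their major histocompatibility haplotype.

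Depth was 5.25 to 24.2 M (mega) counts in the 27 Kupffer libraries of inbred strains, 5.25 to 42.8 M over all 69 libraries, and 55.4 to 158.4 M in the hybrid libraries. Between 219 and 20909 reads fell on Dnase1l3 in the Kupffer libraries of inbred strains. The sorted populations carried their own markers. Clec4f, a lectin of Kupffer cells, averaged 6312 TPM, a level corrected for transcript length and library size, in untreated Kupffer cells (n = 6) and 18.9 TPM in LSECs (n = 12). Clec4g, a lectin of LSECs, averaged 6.21 TPM in the same Kupffer cells and 4072 TPM in LSECs. The stellate libraries were less pure, with 1340 TPM of Clec4g and 711 TPM of Clec4f (n = 11) beside 11992 TPM of Ecm1, a stellate gene. Of the LSEC marker list, 0 of 22 genes were at 0 TPM in any AMLN library.

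Dnase1l3 (deoxyribonuclease 1-like 3, also called DNase gamma) is a secreted endonuclease that cuts DNA on chromatin and in the vesicles that dying cells shed. Macrophages and dendritic cells are its known sources, and liver endothelium is a further one. Loss of the gene in humans and in mice leads to antibodies against DNA and a lupus-like disease. On the mm10 assembly the gene lies on the minus strand at chr14:7964533-7994573 (GENCODE vM21, ENSMUSG00000025279.7), and spans 30041 bp. Its transcript Dnase1l3-201 has 8 exons and 4747 nt, and Dnase1l3-202 has 2 exons and 503 nt. No exon of another gene overlaps an exon of Dnase1l3 in that annotation. The tables count reads over the exons of the gene, so the transcripts are not told apart.

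LSECs held by far the most Dnase1l3 RNA. The level in A/J LSECs was 2463 ± 239 TPM, with a range of 2258 to 2809 TPM. BALB/cJ LSECs had 2466 ± 324 TPM, ranging from 2045 to 2834 TPM, and C57BL/6J LSECs had 2248 ± 126.3 TPM, ranging from 2072 to 2372 TPM (SD, n = 4 each). The libraries of the 3 strains overlapped. In LSECs the fitted log2 differences were 0.04 ± 0.10 for A/J minus BALB/cJ, 0.18 ± 0.07 for A/J minus C57BL/6J and 0.15 ± 0.10 for BALB/cJ minus C57BL/6J (SE).

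Stellate libraries came next, at 779.7 ± 193 TPM in A/J (SD, n = 4), 577.6 ± 139 TPM in BALB/cJ (SD, n = 4) and 942.9 ± 274 TPM in C57BL/6J (SD, n = 3). Set against the LSEC level of the same strain, Dnase1l3 in the single stellate libraries was 0.868 to 1.22 times the median of the 22 LSEC markers expressed in the same way. Thus Dnase1l3 and the endothelial markers stood at nearly the same share of their LSEC levels in those libraries. Hepatocytes had 6.18 ± 2.05 TPM in A/J (SD, n = 2), 12.1 ± 4.69 TPM in BALB/cJ (SD, n = 2) and 15.6 ± 3.79 TPM in C57BL/6J (SD, n = 3). BMDMs, which are macrophages grown away from the liver, had between 0 and 0.167 TPM in all 12 libraries of the inbred strains.

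Over the 25 groups of the inbred strains the order was therefore LSECs, stellate cells, Kupffer cells, hepatocytes and BMDMs. Kupffer groups stood between 17.7 TPM (untreated BALB/cJ) and 292.1 TPM (BALB/cJ on the AMLN diet). Of the 24 pairs of neighbours in this order, 7 had libraries that did not overlap. Those gaps lay below C57BL/6J LSECs, below A/J AMLN Kupffer cells, below untreated A/J Kupffer cells, below untreated C57BL/6J Kupffer cells, below BALB/cJ hepatocytes, below A/J hepatocytes and, at the floor, below C57BL/6J BMDMs with KLA. All other neighbours, among them AMLN BALB/cJ Kupffer cells against both BALB/cJ stellate cells and AMLN A/J Kupffer cells, did not differ beyond the range of their libraries.

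**Figure D1:**
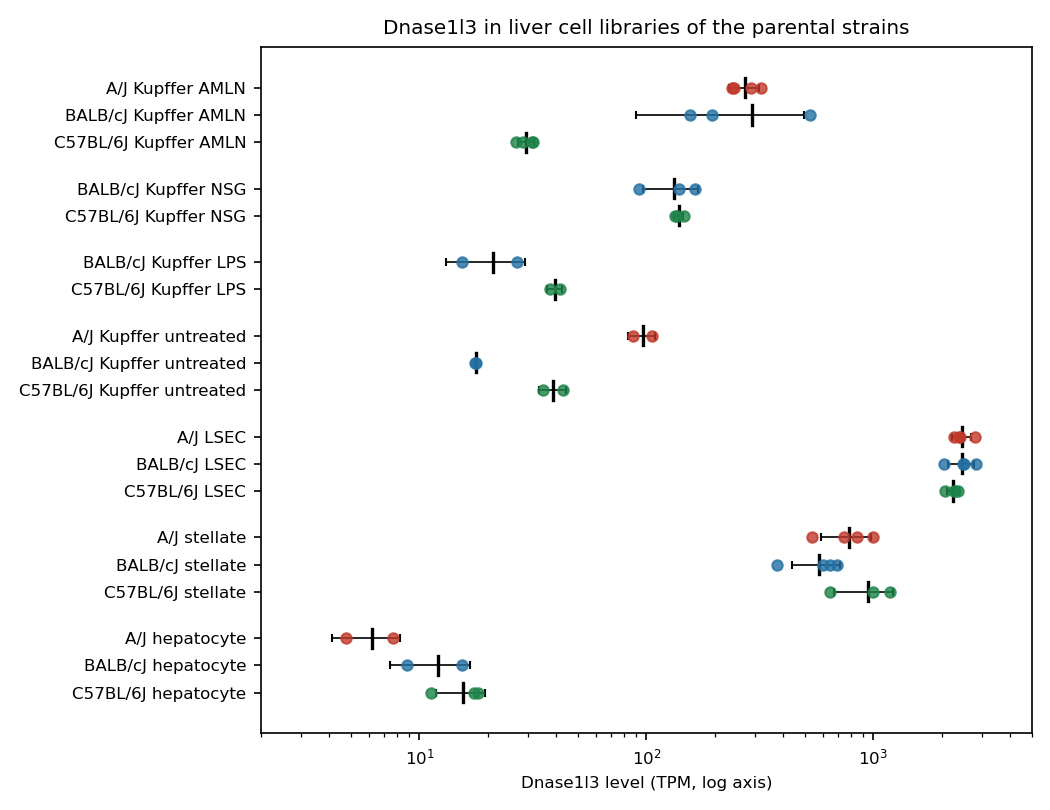
Dnase1l3 in each library of the inbred strains, in TPM on a log axis, with groups down the page by cell type and treatment (BMDMs are not drawn). Points are libraries, thick bars are group means and whiskers are 1 SD. LSEC libraries lie at 2045 to 2834 TPM, and the Kupffer libraries of A/J and BALB/cJ on the AMLN diet lie at 156.1 to 524.8 TPM, above all untreated Kupffer libraries.

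Untreated Kupffer cells had a different level in each strain. A/J Kupffer cells had 105.7 and 86.9 TPM, against 17.7 and 17.6 TPM in BALB/cJ and 35.1 and 42.7 TPM in C57BL/6J. A/J was the highest, BALB/cJ the lowest, and no library of a strain overlapped those of another. The level in A/J was 5.45 times that in BALB/cJ and 2.47 times that in C57BL/6J. On the fitted log2 scale A/J minus BALB/cJ was 2.42 ± 0.16, A/J minus C57BL/6J was 1.30 ± 0.18 and BALB/cJ minus C57BL/6J was -1.13 ± 0.13 (SE, n = 2 each). These 3 differences share libraries and are not independent of each other.

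LSEC markers were low in the same libraries. Each of the 22 markers was divided by its mean in LSECs of the same strain, and the median over the markers was taken in each library. All LSEC libraries were from untreated mice. For the diet, LPS and NSG groups, the LSEC levels under those conditions were therefore not measured. In untreated A/J Kupffer cells this median was 0.196% and 0.180% of the LSEC level, where Dnase1l3 stood at 4.29% and 3.53%. In BALB/cJ the markers had medians of 0.101% and 0.127%, where Dnase1l3 stood at 0.718% and 0.714%. In C57BL/6J they had 0.189% and 0.112%, where Dnase1l3 stood at 1.56% and 1.90%. Dnase1l3 was thus 5.60 to 21.9 times the marker median in the untreated Kupffer libraries. Taken against the sum of the markers in TPM, in which Stab2 weighs more, it stood much nearer to them, at 7.08 and 5.22 times their share in A/J, at 1.98 and 1.42 times in BALB/cJ and at 2.26 and 3.43 times in C57BL/6J. Stab2 alone made up 98.8 of 150.4 and 116.5 of 167.5 TPM of that sum in A/J. It made up 48.6 of 84.8 and 66.6 of 118.0 TPM in BALB/cJ, and 97.4 of 155.5 and 95.5 of 124.6 TPM in C57BL/6J.

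Taken at the marker median, LSEC RNA would carry 4.84 and 4.42 TPM of Dnase1l3 into the A/J libraries. The corresponding values were 2.50 and 3.14 TPM in BALB/cJ and 4.24 and 2.51 TPM in C57BL/6J. The measured levels exceeded these in A/J by 100.9 and 82.4 TPM, in BALB/cJ by 15.2 and 14.5 TPM and in C57BL/6J by 30.9 and 40.2 TPM, so the order of the strains was the same after the subtraction. With the summed markers in place of their median, the excess was 90.8 and 70.2 TPM in A/J, only 8.78 and 5.18 TPM in BALB/cJ, and 19.6 and 30.2 TPM in C57BL/6J, in the same order. In bulk samples, fewer cells of a type and less RNA per cell cannot be told apart.

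1 LSEC marker stood above Dnase1l3 in both the A/J and the C57BL/6J libraries. It was Stab2, a scavenger receptor of sinusoidal endothelium, at 9.52% and 11.2% of its LSEC level in A/J and at 7.76% and 7.91% in C57BL/6J. In BALB/cJ, 3 of 22 markers stood above Dnase1l3, Stab2 being at 4.01% and 5.50%. Sox17, a transcription factor of endothelium, was at 0 TPM in both untreated BALB/cJ libraries, and Mcam, which encodes the CD146 of the gate, was at 0 TPM in 1 untreated C57BL/6J library. Few LSEC markers were high enough to be tested between strains, with 4 in A/J against BALB/cJ, 3 in A/J against C57BL/6J and 2 in BALB/cJ against C57BL/6J. A gene was called at an adjusted p under 0.05 (edgeR quasi-likelihood test, Benjamini-Hochberg) and a change of over 1 on the log2 scale. Of the 4, only Lyve1, a hyaluronan receptor, was called, at means of 1.25 TPM in A/J and 8.50 TPM in BALB/cJ (-2.76 ± 0.47, adjusted p = 0.016 with edgeR, and 0.0816 or 0.163 without A/J replicate 1 or 2), where 3.17% of 7758 genes were called. All 4 had an unadjusted p under 0.05, where 1932 of all genes did, the other 3 being higher in A/J. The median log2 difference of the 4 was 0.89, beside 0.00 for all genes. Stab2 alone averaged clearly above 8 TPM in both strains, so most of the 4 entered through the strain in which they were higher. edgeR called 0 markers in A/J against C57BL/6J and in BALB/cJ against C57BL/6J, at a background of 4.63% of 7779 and 5.93% of 7803 genes. Of these markers 0 and 1 had an unadjusted p under 0.05, where 1976 and 3277 of all genes did, and DESeq2 called 0.

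**Figure D2:**
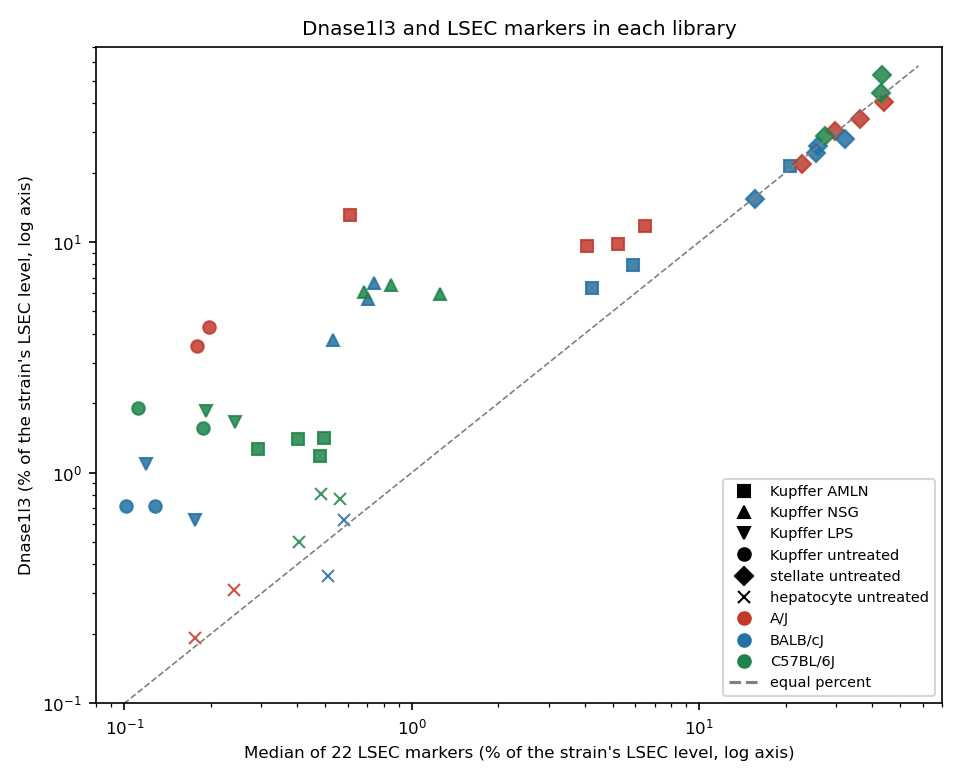
Dnase1l3 against the median of 22 LSEC markers, each as a percentage of its mean in LSECs of the same strain, with 1 point per library and log axes. Colours are strains and shapes are groups, and the dashed line marks equal shares. Stellate and hepatocyte libraries lie near the line, at 0.695 to 1.67 times the marker median, and untreated Kupffer libraries lie 5.60 to 21.9 times above it.

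The AMLN diet went with a higher level in A/J and BALB/cJ Kupffer cells but not in those of C57BL/6J. In A/J, Dnase1l3 had 320.8, 288.4, 237.2 and 242.2 TPM on the AMLN diet, against 105.7 and 86.9 TPM in untreated mice. Every AMLN library was above both untreated ones, and the mean level was 2.83 times higher. BALB/cJ Kupffer cells had 195.5, 156.1 and 524.8 TPM on the diet, against 17.7 and 17.6 TPM untreated, a ratio of 16.5. Here too the groups did not overlap, but replicate 3 was well above the other AMLN libraries of BALB/cJ. C57BL/6J Kupffer cells had 28.5, 26.5, 31.3 and 31.6 TPM on the diet, against 35.1 and 42.7 TPM untreated, so that all 4 lay below both untreated libraries in TPM, at 0.758 times the mean.

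The fitted log2 differences between AMLN and untreated Kupffer cells in the same order of strains were 1.68 ± 0.29, 4.01 ± 0.64 and -0.18 ± 0.11 (SE). Without replicate 3 of the AMLN group, the BALB/cJ difference was 3.30. In C57BL/6J the median gene fell by 0.20 in TPM on the log2 scale, so that of the -0.39 seen for Dnase1l3 on that scale, -0.18 was left relative to the median gene. On the AMLN diet, the A/J level was within the spread of that of BALB/cJ, with a fitted difference of 0.12 ± 0.42. It was 9.23 times that of C57BL/6J (3.18 ± 0.17), and the BALB/cJ level was 9.90 times that of C57BL/6J (3.05 ± 0.38). The untreated order of the strains, in which BALB/cJ was lowest, therefore did not hold on the diet, where C57BL/6J was lowest and A/J and BALB/cJ overlapped.

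In BALB/cJ and A/J, the LSEC marker median was above both untreated libraries in every AMLN library. In BALB/cJ, the marker medians were 5.88%, 4.22% and 20.8% of the LSEC level on the AMLN diet, and Dnase1l3 stood at 7.93%, 6.33% and 21.3%. Dnase1l3 was 1.02 to 1.50 times the marker median in these libraries, against 5.60 to 7.08 times in untreated BALB/cJ cells. Of the 22 markers, 2, 4 and 10 stood above Dnase1l3 on the diet, against 3 in both untreated libraries. Against the summed markers Dnase1l3 was 1.19, 1.31 and 0.960 times, against 1.98 and 1.42 times untreated, so that the contrast was much smaller by that measure. Of that sum, Stab2 alone made up 48.6 of 84.8 and 66.6 of 118.0 TPM untreated. On the diet it made up 174.3 of 1566, 121.4 of 1129 and 308.6 of 5189 TPM. If LSECs on the diet had the levels of untreated ones, LSEC RNA at the marker median would carry 145.0, 104.2 and 512.5 TPM of Dnase1l3. The measured levels exceeded that by 50.5, 51.9 and 12.3 TPM, against 15.2 and 14.5 TPM in untreated cells. By the summed markers the differences were 30.6, 37.1 and -22.0 TPM, against 8.78 and 5.18 TPM. Replicate 3 was thus below both untreated libraries by either measure, and the other AMLN libraries were above them. In replicate 3, which had the highest Dnase1l3 of all Kupffer libraries, the LSEC markers were also the highest, and Aqp1, a water channel of LSECs, had 1099 TPM.

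In AMLN BALB/cJ Kupffer cells, 17 of 21 tested LSEC markers rose, against a background of 3.42% of 8236 genes called in either direction. Their median log2 change was 6.60, where the median of all genes tested was -0.02. Most of these markers passed the limit of 8 TPM only through the AMLN group, as Kdr did at 1.29 TPM untreated and 183.7 TPM on the diet. The count and the median change were thus largely set by that filter. Without AMLN replicate 3 the count was again 17, and without AMLN replicate 1 or either untreated library edgeR called 0, where DESeq2 with all libraries called 20. The summed level of the list was 1129 to 5189 TPM on the diet, against 84.8 to 118.0 TPM untreated. The summed markers of several other cells were higher in that comparison. The summed hepatocyte markers had 1449 to 2449 TPM, against 140 to 293 TPM untreated, the stellate markers had 564 to 1191 TPM, against 301 to 367 TPM, and the erythroid markers had 792 to 949 TPM, against 3.84 to 4.30 TPM. Markers of monocytes and recruited macrophages had 215 to 529 TPM, against 86.6 to 86.8 TPM. Of 8 tested, 0 were called by edgeR, 6 were called by DESeq2 and 7 had an unadjusted p under 0.05, where 1110 of 8236 genes did. B cell and plasma cell markers had 62.0 to 99.9 TPM, against 15.3 to 16.6 TPM. Of 3 tested dendritic cell markers edgeR called 0 and DESeq2 called 1, Zbtb46, as higher, and their median log2 change was -0.32. The part of these cells in the Dnase1l3 difference was not tested.

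The 4 AMLN libraries of A/J differed in the same respect. The marker medians were 0.609%, 6.48%, 4.07% and 5.24% of the LSEC level, and Dnase1l3 stood at 13.0%, 11.7%, 9.63% and 9.83%. Of the 22 markers, 0, 1, 1 and 2 stood above Dnase1l3, against 1 in both untreated A/J libraries. Replicate 1 had the lowest LSEC markers and the highest Dnase1l3. In that library Clec4g had 24.4 TPM and Aqp1 36.3 TPM, against 151 to 269 TPM and 162 to 335 TPM in the other 3 AMLN libraries and at most 9.03 TPM of either in untreated A/J cells. With untreated LSECs as the reference, LSEC RNA at the marker median would carry 15.0 TPM of Dnase1l3 into replicate 1 and 100.2 to 159.6 TPM into the others. Whether the diet changes these genes in LSECs was not measured. The measured levels exceeded that by 305.8 TPM in replicate 1 and by 113.1 to 137.0 TPM in the others, against 100.9 and 82.4 TPM in untreated A/J cells. Thus the excess over the marker-matched level was above that of both untreated libraries in all 4, and was largest in replicate 1. By the summed markers it was 296.4 TPM in replicate 1 and 102.4 to 129.3 TPM in the others, against 90.8 and 70.2 TPM.

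Of the 19 LSEC markers tested in A/J, 0 were called by edgeR, where 18 had an unadjusted p under 0.05 and DESeq2 called 18 as higher. Without AMLN replicate 1, edgeR called 17 as higher. With all libraries, 0.0504% of 7930 genes were called by edgeR and 856 had an unadjusted p under 0.05. The median log2 change of the tested markers was 4.67, where that of all genes was 0.02. Most of them passed the limit of 8 TPM only through the AMLN group, so their direction was largely set by that filter. The summed list had 246 to 1710 TPM on the diet, against 150 to 167 TPM untreated. Hepatocyte markers summed to 98.2 to 3284 TPM, against 330 to 477 TPM, so they were below the untreated range in 2 AMLN libraries and far above it in the other 2. Replicate 1, with the highest Dnase1l3, was among the 2 low ones, at 189 TPM. Markers of monocytes and recruited macrophages summed to 379 to 695 TPM, against 51.2 to 80.3 TPM, and were highest in replicate 1. B cell and plasma cell markers summed to 43.7 to 122.6 TPM, against 9.97 to 15.2 TPM. Of 2 tested dendritic cell markers 0 were called, and their median log2 change was -0.22. The part of these cells in the A/J difference was not tested.

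C57BL/6J AMLN libraries had LSEC marker medians of 0.293%, 0.480%, 0.402% and 0.496%, against 0.189% and 0.112% in untreated cells, while Dnase1l3 stood at 1.27%, 1.18%, 1.39% and 1.41%, against 1.56% and 1.90%. Dnase1l3 was thus lower, and the markers higher, than in the untreated cells. The levels exceeded the marker-matched value by 15.7 to 22.3 TPM on the diet, against 30.9 and 40.2 TPM untreated, and by the summed markers by 4.95 to 15.6 TPM, against 19.6 and 30.2 TPM. Of 5 tested LSEC markers 3 rose, at a background of 13.8% of 7857 genes called (1 without untreated replicate 2, and 1 with the replicate block), and the summed list had 129 to 216 TPM, against 125 to 156 TPM. Most of the tested LSEC markers passed the limit of 8 TPM only through the AMLN group, so their direction was largely set by that filter. Markers of monocytes and recruited macrophages summed to 1522 to 2005 TPM, against 158 to 227 TPM. Of 2 tested dendritic cell markers 1 was called, as lower, and their median log2 change was -0.63. The part of recruited or dendritic cells in the C57BL/6J level was not tested.

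**Figure D3:**
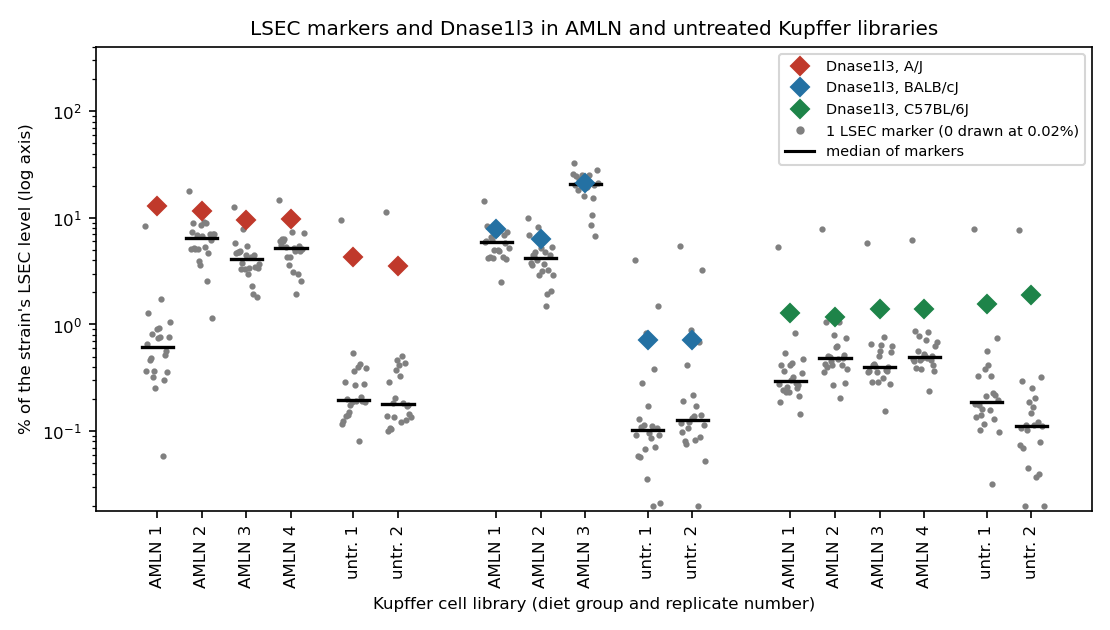
Dnase1l3 (diamonds) and each of 22 LSEC markers (grey points, 0 drawn at the lower edge) in AMLN and untreated Kupffer libraries, as a percentage of the LSEC level of the strain on a log axis, with the marker median as a bar. In BALB/cJ AMLN libraries Dnase1l3 lies at 1.02 to 1.50 times the marker median, while A/J AMLN replicate 1 has Dnase1l3 at 13.0% and a marker median of 0.609%.

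Kupffer cells grown from a graft in NSG mice had more Dnase1l3 than untreated cells of the donor strain. BALB/cJ cells in NSG mice had 139.8, 163.6 and 93.0 TPM, against 17.7 and 17.6 TPM in untreated BALB/cJ mice. C57BL/6J cells in NSG mice had 146.0, 133.8 and 137.1 TPM, against 35.1 and 42.7 TPM in untreated C57BL/6J mice. All NSG libraries were above all untreated libraries of their strain, with ratios of the means of 7.48 and 3.57. The fitted log2 differences were 2.89 ± 0.23 in BALB/cJ and 1.81 ± 0.12 in C57BL/6J (SE). In the NSG host the donor strains overlapped, at -0.04 ± 0.16 for BALB/cJ minus C57BL/6J, where they differed by -1.13 in untreated mice. Whether the strain difference itself changed was not tested.

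LSEC markers were higher in the NSG groups as well. Their shares were taken against untreated LSECs of the donor strain, while the liver was that of the NSG host. No NSG LSEC library was among the samples, so the marker-matched values rest on a reference from another strain. The marker medians were 0.703%, 0.742% and 0.531% in BALB/cJ cells in NSG mice, where Dnase1l3 stood at 5.67%, 6.63% and 3.77%. In C57BL/6J cells they were 0.845%, 1.26% and 0.684%, where Dnase1l3 stood at 6.50%, 5.95% and 6.10%. The levels exceeded the marker-matched value by 79.9 to 145.3 TPM in BALB/cJ and by 105.5 to 127.0 TPM in C57BL/6J, against at most 40.2 TPM in untreated cells of both strains. By the summed markers these were 72.5 to 139.0 TPM and 96.9 to 117.2 TPM, against at most 30.2 TPM. Of 7 tested LSEC markers 5 rose in BALB/cJ, where 4.82% of 7888 genes were called. In C57BL/6J 9 of 10 rose, where 8.51% of 8108 genes were called. In both strains most of the tested markers passed the limit of 8 TPM only through the NSG group, so these counts were largely set by that filter. The summed list had 194 to 234 TPM, against 84.8 to 118.0 TPM, in BALB/cJ and 278 to 369 TPM, against 125 to 156 TPM, in C57BL/6J.

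Summed markers of other blood cells were also higher in NSG mice. Those of monocytes and recruited macrophages had 192 to 303 TPM, against 86.6 to 86.8 TPM untreated, in BALB/cJ, where 6 of 9 were called as higher and 1 as lower. In C57BL/6J they had 379 to 397 TPM, against 158 to 227 TPM, and 7 of 9 were called as higher. Of all genes, 4.82% of 7888 in BALB/cJ and 8.51% of 8108 in C57BL/6J were called in either direction. Between untreated BALB/cJ and C57BL/6J cells, 3 of the 12 listed were high enough to be tested. Most of the 9 thus entered the test through the NSG group, where they were high. T and NK cell markers summed to 84.0 to 452.5 TPM, against 25.3 to 26.6 TPM untreated, in BALB/cJ and to 338 to 439 TPM, against 8.90 to 16.7 TPM, in C57BL/6J. B cell and plasma cell markers summed to 55.0 to 96.0 TPM, against 15.3 to 16.6 TPM, in BALB/cJ and to 115 to 250 TPM, against 17.5 to 27.9 TPM, in C57BL/6J. Dendritic cell markers, which belong to a cell type known to make Dnase1l3, summed to 85.5 to 142 TPM, against 57.02 to 57.58 TPM, in BALB/cJ and to 151 to 180 TPM, against 119 to 128 TPM, in C57BL/6J. The part of these cells in the NSG difference was not tested.

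LPS left the level of Dnase1l3 in TPM about where it was in the inbred strains. BALB/cJ Kupffer cells had 26.9 and 15.4 TPM after LPS, against 17.7 and 17.6 TPM untreated, and the untreated values lay between the others. C57BL/6J Kupffer cells had 37.4 and 41.7 TPM after LPS, against 35.1 and 42.7 TPM untreated, and the groups overlapped. The fitted log2 differences were 0.72 ± 0.24 in BALB/cJ and 0.58 ± 0.18 in C57BL/6J (SE), where the differences in log2(TPM + 1) were 0.20 and 0.03. The scales differ because the median gene fell by 0.47 in BALB/cJ and by 0.57 in C57BL/6J in TPM after LPS, while the fit is centred near the median gene. Relative to the median gene Dnase1l3 was higher by 0.67 and 0.59. In the LPS libraries the LSEC marker median was 0.119% and 0.176% in BALB/cJ and 0.242% and 0.192% in C57BL/6J, and that of Stab2 was 0.967% to 2.45%, below its untreated share.

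The hybrid mice gave a test of LPS in libraries that had not been used in choosing the gene. CB6F1/J Kupffer cells had 27.7, 19.7, 38.7, 28.0 and 30.1 TPM of Dnase1l3 after LPS, against 56.1, 57.4, 47.1 and 51.6 TPM untreated. All 5 LPS libraries were below every untreated one, with means of 28.9 ± 6.79 TPM (SD, n = 5) and 53.1 ± 4.68 TPM (SD, n = 4). In log2(TPM + 1) the difference was -0.88, with a two-sided exact permutation p of 0.0159, the smallest that 5 against 4 libraries can give. The median gene fell by 0.73 in TPM in that comparison. Once the median of each library was subtracted, the difference was -0.22, with an exact permutation p of 0.254. In the count fit across all genes it was -0.11 ± 0.15 (SE), with an adjusted p of 0.499 (edgeR). The fall in TPM was therefore larger than the spread between libraries, and the difference relative to the other genes was not. The call rate in this comparison was 39.4% of 7703 genes.

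LSEC markers in the hybrid libraries had medians of 0.0986% to 0.218% after LPS, against 0.208% to 0.388% untreated, relative to the mean level in BALB/cJ and C57BL/6J LSECs. Dnase1l3 stood at 0.837% to 1.64% after LPS, against 2.00% to 2.43% untreated. CB6F1/J cells in NSG mice had 59.99, 71.7 and 64.1 TPM of Dnase1l3, at marker medians of 0.417% to 0.503%. These 3 libraries carry an untreated label and are placed in NSG mice by their titles. They were above all 4 untreated hybrid libraries, at a mean of 65.3 ± 5.97 TPM (SD, n = 3), against 53.1 TPM, and the difference was not tested. The hybrid tables were normalised apart from those of the inbred strains, so the untreated hybrid level of 47.1 to 57.4 TPM is only set beside the 17.6 to 17.7 TPM of untreated BALB/cJ and the 35.1 to 42.7 TPM of untreated C57BL/6J, and no comparison was made. Hybrid BMDMs had 0.039 and 0.161 TPM with KLA, against 0.101 and 0.152 TPM with PBS, from 10.5 to 64 reads per library, too few to enter the fit.

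No allele share could be given for Dnase1l3. In hybrid mice, reads that span a variant between BALB/cJ and C57BL/6J can be assigned to a parental allele, and the number of such reads on Dnase1l3 was 0 for both alleles in all 16 hybrid libraries. This was not for lack of depth, since the 12 hybrid Kupffer libraries held 125902 reads on the gene. A count of 0 allows up to 3 such reads, which is 0.00238% of them and covers counting error only. Mapped to the BALB/cJ or the C57BL/6J genome, a library differed by at most 191 Dnase1l3 reads. The gene was not unusual in this respect, as 4084 of 8093 genes over 8 TPM in hybrid Kupffer cells, 50.5%, also had no variant-spanning read. Whether the strain difference between BALB/cJ and C57BL/6J lies in the gene's own copy was therefore not measured in these tables.

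**Figure D4:**
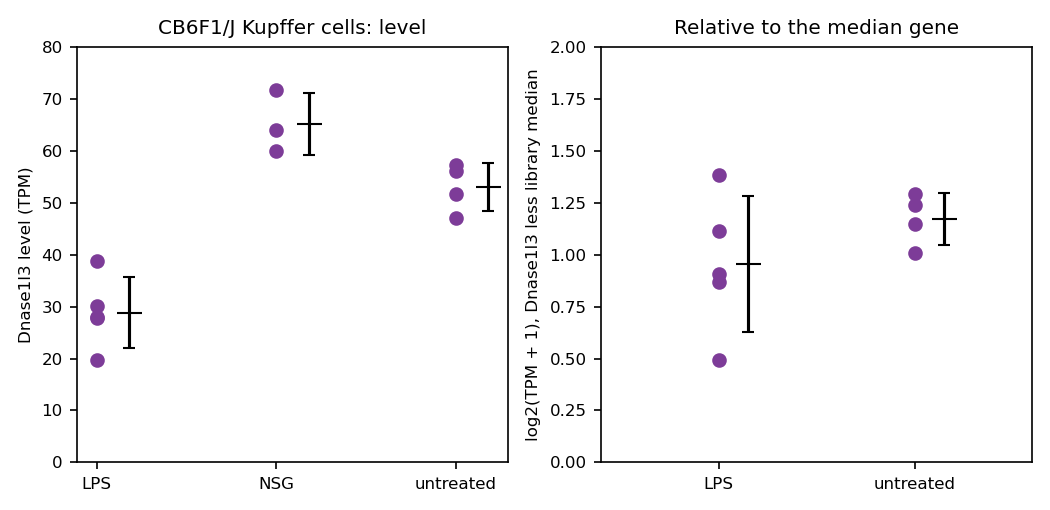
Dnase1l3 in CB6F1/J Kupffer libraries in TPM (left) and as log2(TPM + 1) less the median of the library (right, LPS and untreated), with 1 point per library, the mean as a bar and 1 SD as whiskers. In TPM, the 5 LPS libraries lie at 19.7 to 38.7 TPM, below the 4 untreated ones at 47.1 to 57.4 TPM, and the NSG libraries lie at 59.99 to 71.7 TPM. Relative to the library median, the LPS and untreated libraries overlap.

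Other DNA nucleases were taken from a list, and no difference between them and Dnase1l3 was tested. The list held 12 genes, of which 7 were high enough to be tested in each comparison. In untreated Kupffer cells these were Pld4 and Pld3, lysosomal exonucleases that digest single-stranded nucleic acids, Samhd1, which breaks down deoxynucleotides, Dnase2a, the acid endonuclease of lysosomes, Dnase1l1, a relative of Dnase1l3, Trex1, the main cytosolic exonuclease, and Endog, a mitochondrial endonuclease. Pld4 had 455.9 ± 17.4 TPM in A/J, 380.6 ± 34.7 TPM in BALB/cJ and 560.4 ± 27.4 TPM in C57BL/6J, and Dnase2a had 144.6 ± 4.46, 143.4 ± 2.76 and 148.5 ± 0.955 TPM in the same order (SD, n = 2 each). In A/J LSECs Dnase2a had 23.3 ± 2.62 TPM and Pld4 2.87 ± 2.79 TPM (SD, n = 4), so these enzymes were low where Dnase1l3 was highest. Dnase1, the secreted relative of Dnase1l3, had at most 3.30 TPM in untreated Kupffer libraries.

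None of the 7 was called between the strains in untreated Kupffer cells. edgeR called 0 of 7 in A/J against BALB/cJ, in A/J against C57BL/6J and in BALB/cJ against C57BL/6J, where 3.17%, 4.63% and 5.93% of all genes tested were called. Of the 7 genes, 0, 2 and 2 had an unadjusted p under 0.05 in these comparisons and DESeq2 called 0. Over all genes, 1932 of 7758, 1976 of 7779 and 3277 of 7803 had such a p. The median log2 difference of the 7 lay between -0.05 and -0.02, beside 0.00 for all genes. A count of 0 of 7 is near these backgrounds. In AMLN against untreated cells 0 of 7 were called in A/J and 0 in BALB/cJ, at backgrounds of 0.0504% and 3.42%. In each, 1 had an unadjusted p under 0.05, where 856 of 7930 and 1110 of 8236 genes did, and DESeq2 called 0. In NSG against untreated cells 0 were called in BALB/cJ and 0 in C57BL/6J, at backgrounds of 4.82% and 8.51%. Of the 7, 2 and 3 had an unadjusted p under 0.05, where 2542 of 7888 and 3754 of 8108 genes did, and DESeq2 called 0.

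C57BL/6J Kupffer cells on the AMLN diet, in which Dnase1l3 was not higher, had more Trex1 and Pld3. Trex1 had 135.0, 112.0, 112.0 and 134.7 TPM on the diet, against 43.0 and 40.6 TPM untreated, a log2 change of 1.78 ± 0.11 (adjusted p = 5.77e-06, edgeR). Pld3 had 615.6, 584.7, 532.2 and 619.2 TPM, against 253.2 and 264.6 TPM, a change of 1.40 ± 0.10 (adjusted p = 8.15e-06, edgeR). No library of either gene overlapped between the groups, and the share of all genes without overlap was not counted. In all, 2 of 7 nucleases were called and all 7 had an unadjusted p under 0.05 (edgeR). Of 7857 genes, 13.8% were called and 5243 had such a p. The median over the 7 nucleases was 0.38, beside 0.01 for all genes tested. Reads of Trex1 may include some of Atrip, whose exons overlap it on the same strand.

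LPS changed the same pair of nucleases in BALB/cJ, C57BL/6J and CB6F1/J Kupffer cells. Trex1 had 303.7 and 254.7 TPM after LPS in BALB/cJ, against 40.9 and 68.8 TPM untreated, a log2 change of 2.80 ± 0.26 (adjusted p = 0.000314, edgeR). In C57BL/6J it had 326.5 and 360.1 TPM, against 43.0 and 40.6 TPM, a change of 3.60 ± 0.17 (adjusted p = 0.000417, edgeR). In CB6F1/J the change of Trex1 was 2.95 ± 0.16 (adjusted p = 7.64e-09, edgeR). Dnase2a went the other way, at 47.7 and 50.2 TPM after LPS in BALB/cJ, against 141.4 and 145.3 TPM untreated. Its log2 change was -1.10 ± 0.13 in BALB/cJ, -1.12 ± 0.13 in C57BL/6J and -1.03 ± 0.13 in CB6F1/J (adjusted p = 0.000682, 0.00205 and 1.13e-05, edgeR), of which the last was at -0.99 under DESeq2, short of the limit of 1. Exons of Dnase2a overlap Mast1 on the opposite strand, and no source used here states the strand setting of the counts.

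Pld4 fell after LPS in C57BL/6J by 1.02 on the log2 scale (adjusted p = 0.0039, edgeR), and by 0.97 under DESeq2, short of the limit of 1. In all, 2 of 7 nucleases were called in BALB/cJ after LPS, where 32.1% of 7754 genes were called, and 3 of 7 in C57BL/6J, where 38% of 7809 were, so these shares were near the background.

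**Figure D5:**
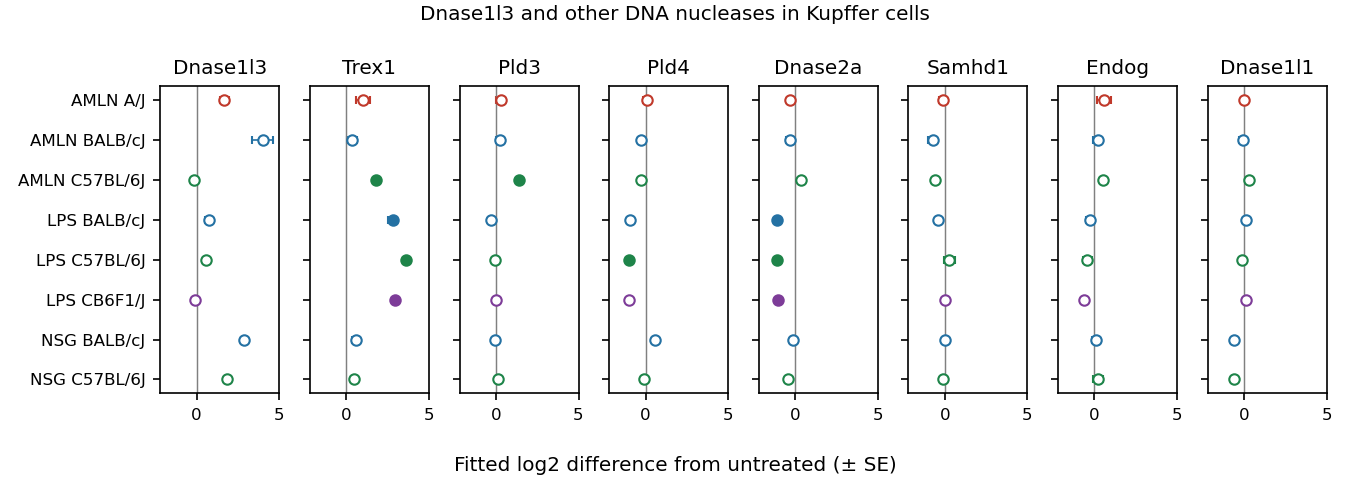
Log2 differences of Dnase1l3 and of the 7 tested DNA nucleases in Kupffer cells of AMLN, LPS and NSG groups against untreated cells, with the SE as whiskers and colours by strain. Filled points were called by edgeR, and open points were not called or, for Dnase1l3 in the inbred strains, are descriptions without a test. Dnase1l3 lies at 4.01 in BALB/cJ on the AMLN diet, while the called nucleases are Trex1, Pld3, Dnase2a and Pld4.

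Genes of nucleic acid sensing, the receptors and adaptors that respond to DNA or RNA left undigested, were listed beside the nucleases (13 genes). In A/J against BALB/cJ and in BALB/cJ against C57BL/6J 1 of 12 tested genes was called, at backgrounds of 3.17% and 5.93%. It was Tlr9 in both, the endosomal receptor of unmethylated DNA. It had a mean of 22.4 TPM in A/J, against 7.83 TPM in BALB/cJ, a log2 difference of 1.49 ± 0.16 (adjusted p = 0.00115, edgeR). BALB/cJ minus C57BL/6J, where the mean of Tlr9 was 24.2 TPM, was -1.61 ± 0.21 (adjusted p = 0.00301, edgeR). For this gene, as for Dnase1l3, BALB/cJ had the lowest level. In A/J against C57BL/6J edgeR called 0 of 12, at a background of 4.63%, and DESeq2 called 0. Of the 12, 3 had an unadjusted p under 0.05, where 1976 of 7779 genes did.

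In NSG against untreated cells 2 of 12 sensing genes were called in BALB/cJ and 1 of 12 in C57BL/6J, at backgrounds of 4.82% and 8.51%. In NSG mice Tlr9 rose in BALB/cJ cells, at 19.7 TPM against 7.83 TPM untreated (1.31 ± 0.16, adjusted p = 0.000245, edgeR). Zbp1, a sensor of Z-form nucleic acids, rose in both donor strains, by 1.08 ± 0.15 in BALB/cJ and 1.13 ± 0.21 in C57BL/6J (adjusted p = 0.000761 and 0.00299, edgeR). Its change was near the limit of 1 in both, and it fell under it, to 0.92 and 0.93, without untreated BALB/cJ replicate 1 or untreated C57BL/6J replicate 2. On the AMLN diet 1 of 12 genes was called as higher in C57BL/6J, where 13.8% of all genes were, and it was Zbp1 (1.03 ± 0.20, adjusted p = 0.0032, edgeR), at 0.83 without untreated replicate 2. In A/J and BALB/cJ edgeR called 0 of 12 on the diet, at backgrounds of 0.0504% and 3.42%, and DESeq2 called 0. In each, 0 had an unadjusted p under 0.05, where 856 of 7930 and 1110 of 8236 genes did. After LPS, 4 of 12 rose in BALB/cJ, at a background of 32.1%, and 6 of 13 in C57BL/6J, at 38%. In CB6F1/J 7 of 13 rose and 1, Aim2, a cytosolic DNA sensor, fell, at 39.4%. These backgrounds count genes called in either direction. Genes called as higher were 1237 of 7754 in BALB/cJ, 1430 of 7809 in C57BL/6J and 1443 of 7703 in CB6F1/J. Those are smaller shares than the rises in the list, and the difference was not tested. Mb21d1, which encodes the DNA sensor cGAS, the adaptor Myd88, the kinase Tbk1 and Zbp1 rose in all 3. Of these, Mb21d1 and Myd88 overlap genes on the opposite strand, from which their reads are not told apart here.

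The genes whose levels were most like those of Dnase1l3 were found by Pearson's r on log2(TPM + 1) of group means. Over the 25 groups of the inbred strains, among 11469 genes, they were Tspan9 (r = 0.98), a tetraspanin, Stab2 (r = 0.98), Erg (r = 0.96), an endothelial transcription factor, Slc29a1 (r = 0.95), a nucleoside transporter, and Aqp1 (r = 0.95). All 5 averaged higher in LSECs than in the other untreated cells, and the groups of a cell type are not independent points. Within the 10 Kupffer groups, among 8959 genes, the closest were Zbtb46 (r = 0.93), a factor of dendritic cells that endothelium also makes, Aldh1l1 (r = 0.92), a folate enzyme, Sox18 (r = 0.90), a factor of endothelium, Ehd3 (r = 0.90), a trafficking protein of LSECs, and Sparc (r = 0.90), a matrix protein.

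Sox18 and Ehd3 are on the LSEC marker list, and untreated LSECs had 86.9 TPM of Zbtb46, against 1.34 TPM in untreated Kupffer cells (n = 12 and 6). Aldh1l1 was highest in hepatocytes, at 482.5 TPM. In AMLN replicate 1 of A/J, which had the highest Dnase1l3 of that group, Zbtb46 had 1.83 TPM and Ehd3 17.9 TPM, against 4.56 to 10.6 TPM and 131 to 177 TPM in the other 3 libraries, so neither gene followed Dnase1l3 there.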

How the data were processed

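RNA-seq was measured in 85 poly(A) libraries of sorted or cultured mouse cells. The authors mapped reads with STAR to strain genomes on mm10 and counted reads over exons with HOMER (no versions are given in the sources used here). The deposited tables of sorted cells hold raw counts, those of the hybrid and of BMDMs hold expected counts that the authors gave in steps of 0.5, and the deposited TPM values come from the same reads. Expected counts were rounded for tests. For CB6F1/J, the deposited variant-spanning expected counts were read per allele, and tables of TPM within allelic selections were not used.

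Differences were fitted with edgeR 4.0.16 in R 4.3.3 (quasi-likelihood, TMM, robust), 2 groups at a time. Genes were tested when they passed filterByExpr and had a mean above 8 TPM in at least 1 group, and were called with a log2 change over 1 and a p, adjusted after Benjamini-Hochberg, under 0.05. The study's methods named DESeq2, which was an alternative (version 1.42.0), with DESeq2 size factors, no filter, each library left out, a replicate block, 1 fit over all Kupffer groups, log2(TPM + 1) and log2(TPM + 0.1). SE is the log2 change over the square root of F. The fit was tried on simulated data only for untreated A/J against BALB/cJ, A/J AMLN against untreated and hybrid LPS against untreated. The simulated dispersion was capped, so genes noisier than the cap were not represented. Labels do not say that libraries are separate animals, so a p-value reflects only how far libraries vary. No replicates agreed within sampling noise (chi-square per degree of freedom of at least 4.24). Named genes were Dnase1l3, called genes of the nuclease and sensing lists, LSEC markers, and the 5 genes nearest in pattern. The members and lists were chosen with earlier results of these data known. Hybrid and inbred tables were normalised separately and not tested against each other. The TPM columns do not reach a full total, so a level is a share of the listed genes. The exact permutation tests of hybrid LPS in TPM were chosen after the data were seen.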

Additional observations from a re-analysis of the deposited data

Results flagged for a closer look

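The AMLN difference of Dnase1l3 was positive in A/J and BALB/cJ, and small and negative in C57BL/6J. The fitted log2 difference in C57BL/6J was -0.18 ± 0.11 (SE), and came as near to none as -0.00121 with a library left out. On the log2(TPM + 1) scale A/J gave 1.48 (4 libraries, all above both untreated ones), BALB/cJ gave 3.76 (3 libraries, all above both untreated ones) and C57BL/6J gave -0.39 (4 libraries, all below both untreated ones). The difference between the strains was not tested. Over the same comparisons, and in the same order, the median gene changed by -0.16, 0.01 and -0.20 on that scale. Of 18 tests for a single library far from the rest of its group, on the level of Dnase1l3 and on LSEC markers, 0 found one, where chance would flag about 1 in 20 groups. Only groups of at least 4 libraries were tested. BALB/cJ AMLN, with 3 libraries, was therefore not tested, nor were the NSG groups and the untreated and LPS Kupffer groups of the inbred strains.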

How the results depend on the processing

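The recomputed values covered the levels and differences of Dnase1l3, the LSEC marker levels and the count of nucleases called. Of these, 355 were labelled as unchanged and 32 as moved. The limit was the SD between replicates for levels and differences, and a factor of 1.5 for the nuclease count. For hybrid LPS it was whether the call was kept. A group mean cannot move by its SD when 1 library is left out, so the label of those entries was fixed in advance. Differences of Dnase1l3 smaller than their SE changed sign with a library left out, which were A/J minus BALB/cJ on the AMLN diet, BALB/cJ minus C57BL/6J in NSG mice (-0.19 to 0.14) and A/J minus BALB/cJ in LSECs (-0.04 to 0.11). Of 29 calls of nucleases, sensing genes and Lyve1 that are named, 22 held under every alternative run and none reversed. The others were Lyve1 (untreated A/J against BALB/cJ), Zbp1 (C57BL/6J AMLN and both NSG comparisons), Pld4 (C57BL/6J LPS), and Aim2 and Dnase2a (hybrid LPS), and all but Lyve1 came to just under 1 on the log2 scale in some of the alternatives. With each library left out in turn, the log2 difference of Dnase1l3 ranged from 2.18 to 2.63 for untreated A/J minus BALB/cJ, 1.06 to 1.50 for A/J minus C57BL/6J and -1.28 to -0.95 for BALB/cJ minus C57BL/6J. For AMLN minus untreated the A/J value ranged from 1.47 to 1.90, that of BALB/cJ from 3.30 to 4.34 and that of C57BL/6J from -0.33 to -0.00121. Between strains on the AMLN diet it ranged from -0.18 to 0.81 for A/J minus BALB/cJ and 2.36 to 3.39 for BALB/cJ minus C57BL/6J, both ends at 0.81 and 2.36 being without BALB/cJ replicate 3. For LPS it ranged from 0.29 to 1.01 in BALB/cJ, where 0.29 was without LPS replicate 1, and 0.42 to 0.77 in C57BL/6J, and for NSG in C57BL/6J from 1.65 to 1.99. A fit with 1 library in a group takes its spread from the other group.

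On log2(TPM + 1) and log2(TPM + 0.1), C57BL/6J AMLN gave -0.39 and -0.40, BALB/cJ LPS gave 0.20 on both and C57BL/6J LPS gave 0.0278 and 0.0286, since these scales are not centred on the median gene. Labels do not pair libraries across groups, and same-numbered libraries deviated together with r of -0.547 to 0.677. With the replicate block, A/J AMLN minus untreated was 1.96, and the 9 calls of listed nucleases became 11. Taken as a sum in place of the median, the LSEC markers were 0.641% in untreated A/J, 0.433% in untreated BALB/cJ and 0.623% in untreated C57BL/6J. They were 0.923% in BALB/cJ and 1.39% in C57BL/6J cells in NSG mice, 0.292% in BALB/cJ and 0.374% in C57BL/6J after LPS, and on the AMLN diet 4.48% (A/J), 11.2% (BALB/cJ) and 0.779% (C57BL/6J). The ratio of Dnase1l3 to this sum was chosen after the data were seen.

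Genes called differed by more than 1.5 times in the AMLN comparison of A/J, with 4 in the fit used, 291 under DESeq2, 170 with no filter, 829 with the replicate block, 702 in 1 fit over all Kupffer groups and 0 to 205 with a library left out, 205 being without AMLN replicate 1. In BALB/cJ AMLN they were 282, 618, 1206, 630 and 677 in the same order, and 5 to 327 with a library left out. LSEC markers called were computed without each library after the data were seen, and in NSG comparisons lay between 5 and 7 in BALB/cJ and between 8 and 9 in C57BL/6J. With no filter the others gave 727, 886 and 1353 between untreated strains, 2809 for C57BL/6J AMLN, 4094 and 4564 for LPS, 1331 and 2050 for NSG and 6180 for hybrid LPS, since more genes were tested. The alternatives for allele shares and for hybrid BMDMs gave no value, because the gene had no variant-spanning read and did not pass the filter.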
